A study of Mus musculus with 4 samples.

Results

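The Tcl1, Pramel and Trim43 gene families are expressed in mouse eggs, early embryos and embryonic stem cells. Of 8 family genes looked for (Tcl1, Tcl1b1, Tcl1b2, Tcl1b3, Tcl1b4, Pramel6, Pramel7 and Trim43a), 7 had a probe set that the array annotation gives to a single gene, 9 probe sets in all, out of 18193 such genes and 45037 probe sets measured. Tcl1b2 had no single-symbol probe set in the annotation used here, and no probe set with several symbols named any of the 8. The genes were selected on their difference between Npac RNAi and control RNAi in these same arrays, so their values below are a description and carry no test.

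RNA was measured on 4 Affymetrix arrays, 2 from E14 mouse embryonic stem cells with RNA interference (RNAi) against Npac and 2 from E14 cells with control RNAi. Both groups were transfected with a short hairpin RNA, put under puromycin after 24 hours, selected for 3 days and kept in 15% serum with 1000 units per ml of LIF, the cytokine that holds these cells in self-renewal. What the control hairpin targets, and whether the replicates were separate cultures, is not given in the sources used here, so p-values measure only the spread between these samples, which may be technical. E14 is a single mouse embryonic stem cell line. Npac is the protein of the gene Glyr1, found on the nucleosomes of transcribed genes, and its probe set read 10.23 and 10.20 in Npac RNAi and 11.30 and 11.32 in control RNAi, which left 46.9% of the control level. Replicate arrays correlated at 0.998 in each group (Pearson's r across probe sets).

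Tcl1 encodes a small protein that binds the kinase Akt and enhances its activity, and in mouse embryonic stem cells it acts downstream of the pluripotency factor Oct4 (Pou5f1). The Tcl1b genes are its relatives in the same gene cluster and are active in eggs and early embryos. Pramel6 and Pramel7 are leucine-rich repeat proteins of the PRAME family that sustain self-renewal downstream of LIF and STAT3, and Pramel7 recruits a Cul2 ubiquitin ligase to Uhrf1, a protein needed to maintain DNA methylation. Trim43a belongs to the tripartite motif family of RING finger proteins and is expressed in the cleaving embryo.

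The stretch of 250 bases before the annotated gene start is shown for the 4 genes with the largest falls, Tcl1, Pramel6, Pramel7 and Trim43a, so that their differing base composition can be seen. Sequences of the Tcl1b cluster, from Tcl1b1 and Tcl1b3, are given beside them to show how alike the Tcl1b genes are. All are from RefSeq, build GRCm38.p6, read 5′ to 3′ on the strand of the gene, and capitals mark the motif matches described after them.
Tcl1, chr12:105222738-105222987 (- strand): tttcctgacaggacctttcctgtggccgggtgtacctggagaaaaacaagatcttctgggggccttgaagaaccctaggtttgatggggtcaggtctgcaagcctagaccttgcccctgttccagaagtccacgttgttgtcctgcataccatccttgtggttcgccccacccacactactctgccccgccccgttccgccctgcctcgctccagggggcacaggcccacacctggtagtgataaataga
Pramel6, chr2:87506315-87506564 (+ strand): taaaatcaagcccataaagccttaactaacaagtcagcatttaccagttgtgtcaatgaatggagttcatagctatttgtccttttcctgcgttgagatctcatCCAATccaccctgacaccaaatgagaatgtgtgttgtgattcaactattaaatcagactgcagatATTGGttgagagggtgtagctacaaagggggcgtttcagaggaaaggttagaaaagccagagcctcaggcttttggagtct
Pramel7, chr2:87492419-87492668 (- strand): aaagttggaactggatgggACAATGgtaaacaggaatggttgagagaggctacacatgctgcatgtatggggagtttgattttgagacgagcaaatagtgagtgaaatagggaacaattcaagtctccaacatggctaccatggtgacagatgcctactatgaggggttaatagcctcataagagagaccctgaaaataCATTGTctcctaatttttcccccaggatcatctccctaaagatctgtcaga
Trim43a, chr9:88580641-88580890 (+ strand): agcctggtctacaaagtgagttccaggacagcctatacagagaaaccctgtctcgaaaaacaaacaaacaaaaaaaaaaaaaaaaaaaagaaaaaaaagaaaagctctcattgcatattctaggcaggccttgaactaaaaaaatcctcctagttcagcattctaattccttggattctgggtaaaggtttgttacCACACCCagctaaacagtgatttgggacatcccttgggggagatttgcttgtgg
Tcl1b1, chr12:105159454-105159703 (+ strand): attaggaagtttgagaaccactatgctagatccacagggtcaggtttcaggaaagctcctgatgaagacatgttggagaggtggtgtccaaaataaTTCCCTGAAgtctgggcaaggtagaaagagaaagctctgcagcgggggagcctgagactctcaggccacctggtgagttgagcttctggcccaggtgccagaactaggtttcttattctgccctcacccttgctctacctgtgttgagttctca
Tcl1b3, chr12:105190795-105191044 (+ strand): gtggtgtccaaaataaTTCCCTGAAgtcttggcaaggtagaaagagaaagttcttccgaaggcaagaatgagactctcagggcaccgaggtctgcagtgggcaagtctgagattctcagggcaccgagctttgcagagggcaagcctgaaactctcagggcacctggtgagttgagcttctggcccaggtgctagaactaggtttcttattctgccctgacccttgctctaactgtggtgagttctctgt

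All 8 genes had such a window. The Tcl1 window was 57.6% G or C and held 7 CpG dinucleotides, the sites of DNA methylation. Those of Pramel6, Pramel7 and Trim43a were 42.0%, 43.2% and 39.2% G or C and held 2, 1 and 1 CpG, and the 4 Tcl1b windows held 1 to 3. Over 32851 mouse promoters the medians were 52.4% and 6 CpG, and 29.0% of promoters held 2 or fewer. The largest falls among the members were thus found both at a window with more CpG than the median promoter and at windows with fewer.

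Among 9 motifs looked for on both strands, the STAT motif TTCNNNGAA was present in all 4 Tcl1b windows, against 7.02% of all promoters. These windows are near copies of each other, with 93.4% to 99.2% identical bases between pairs over 170 to 237 aligned bases, so this is 1 shared match and not 4 separate ones. Pramel7 held the Sox motif ACAATG at 2 places, once on each strand (10.69% of promoters hold it), Pramel6 held CCAAT on each strand (33.85%), and Trim43a held the Klf motif GGGNGTG on the other strand (26.1%). Tcl1 held no match to any of the 9, and the windows of Pramel6, Pramel7 and Trim43a held no STAT match. Neither ATGCAAAT, the octamer (1.6% of promoters), nor AAGGTCA, the Esrrb motif (4.08%), occurred in any of the 8 windows, nor did TATAAA (12.37%), the E-box CACGTG (6.02%) or the Dux motif (0.03%). No 2 matches overlapped. A match is a description of letters, and an absence says only that these letters are not in this window.

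Tcl1, Pramel6, Pramel7 and Trim43a fell to between 26.8% and 38.5% of their control level in Npac RNAi, while the 3 measured Tcl1b genes kept 74.4% to 88.5% of theirs. All 9 probe sets were lower in both Npac RNAi arrays than in both control arrays, which was also true of 41.1% of all probe sets. At a limma adjusted p under 0.05 over all 45037 probe sets, 7 of the 9 were lower, 0 higher and 2 not called, where 28.2% of all probe sets were called in either direction and 14% were called lower. Nothing is read from these counts, because the same contrast chose the genes. The median log2 difference of the 9 was -1.46, and that of all probe sets was -0.06. In bulk RNA, fewer cells expressing a gene and less of its RNA per cell cannot be told apart.

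**Figure D1:**
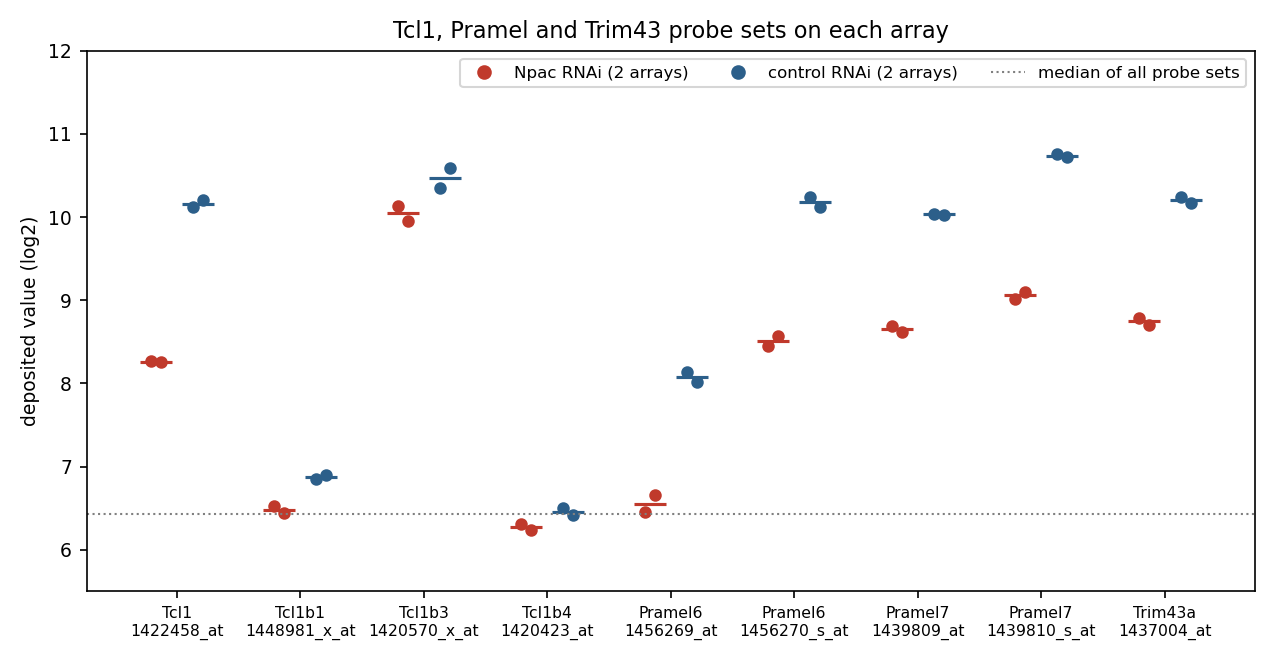
Deposited log2 values of the 9 probe sets on each array, Npac RNAi left of control RNAi within each probe set, with a bar at each group's mean and a dotted line at the median of all probe sets. The 6 probe sets of Tcl1, Pramel6, Pramel7 and Trim43a have at least 1.34 between the groups, and those of the Tcl1b genes at most 0.34.

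Tcl1, the Akt coactivator, had log2 values of 8.26 and 8.26 in Npac RNAi and 10.12 and 10.20 in control RNAi. Both Npac RNAi arrays lay far below both control arrays, with a gap of 1.85 between the groups and at most 0.088 between replicates. The log2 difference was -1.90 (SE 0.062, n = 2 arrays per group), a 3.73-fold fall, and 7 of the 45037 probe sets had a lower one.

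The Tcl1b genes are paralogs beside Tcl1, and each of the 3 measured was read by 1 probe set. Tcl1b1 read 6.52 and 6.44 in Npac RNAi and 6.86 and 6.90 in control RNAi. Its difference was -0.40 (SE 0.0622), and the groups did not overlap. Tcl1b3 read 10.14 and 9.95 in Npac RNAi and 10.35 and 10.59 in control RNAi. Here the difference of -0.43 (SE 0.113) came with a gap of 0.217 between the groups, smaller than the gap of 0.235 between its control replicates. Tcl1b4 read 6.31 and 6.24 in Npac RNAi and 6.50 and 6.41 in control RNAi, with a mean below the median level of all probe sets. The groups did not overlap, and its difference was -0.18 (SE 0.0659). The Tcl1b1 and Tcl1b3 probe sets are of the manufacturer's x type, which can also read transcripts of related genes, so the Tcl1b values cannot be assigned to 1 paralog with certainty.

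Pramel6 was read by a pair of probe sets, and the more specific of them had 6.45 and 6.65 in Npac RNAi and 8.14 and 8.02 in control RNAi. The other, of the manufacturer's s type for shared sequence, had 8.45 and 8.57 in Npac RNAi and 10.24 and 10.13 in control RNAi. In both, the Npac RNAi arrays lay below the control arrays without overlap. Their differences were -1.53 (SE 0.0954) and -1.67 (SE 0.079), so 34.6% and 31.3% of the control level remained.

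Pramel7, the receptor for Uhrf1, likewise had 8.69 and 8.62 in Npac RNAi and 10.04 and 10.03 in control RNAi for its more specific probe set. Its s-type probe set had 9.02 and 9.10 in Npac RNAi and 10.76 and 10.72 in control RNAi. These groups also stood apart. The differences of -1.38 (SE 0.059) and -1.68 (SE 0.0623) left 38.5% and 31.3% of the control level. Both probe sets of a gene have the same source accession in the annotation, so they are not independent readings, and the s-type ones may also read transcripts of related genes.

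Trim43a, the RING finger gene, had 8.79 and 8.71 in Npac RNAi and 10.24 and 10.17 in control RNAi. The arrays of each group stood together and the groups did not overlap. Its log2 difference was -1.46 (SE 0.0659), which left 36.4%.

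Over all probe sets, a log2 difference below -1 was found for 114 of 45037 (0.253%), and 6 of these belonged to Tcl1, Pramel6, Pramel7 and Trim43a. Depending on which of the 6 is taken, 7 to 34 of all probe sets had a lower difference than it. For Tcl1b1, Tcl1b3 and Tcl1b4 the corresponding counts were 3327, 2593 and 14191. These places only describe the genes, because the same contrast chose them.

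**Figure D2:**
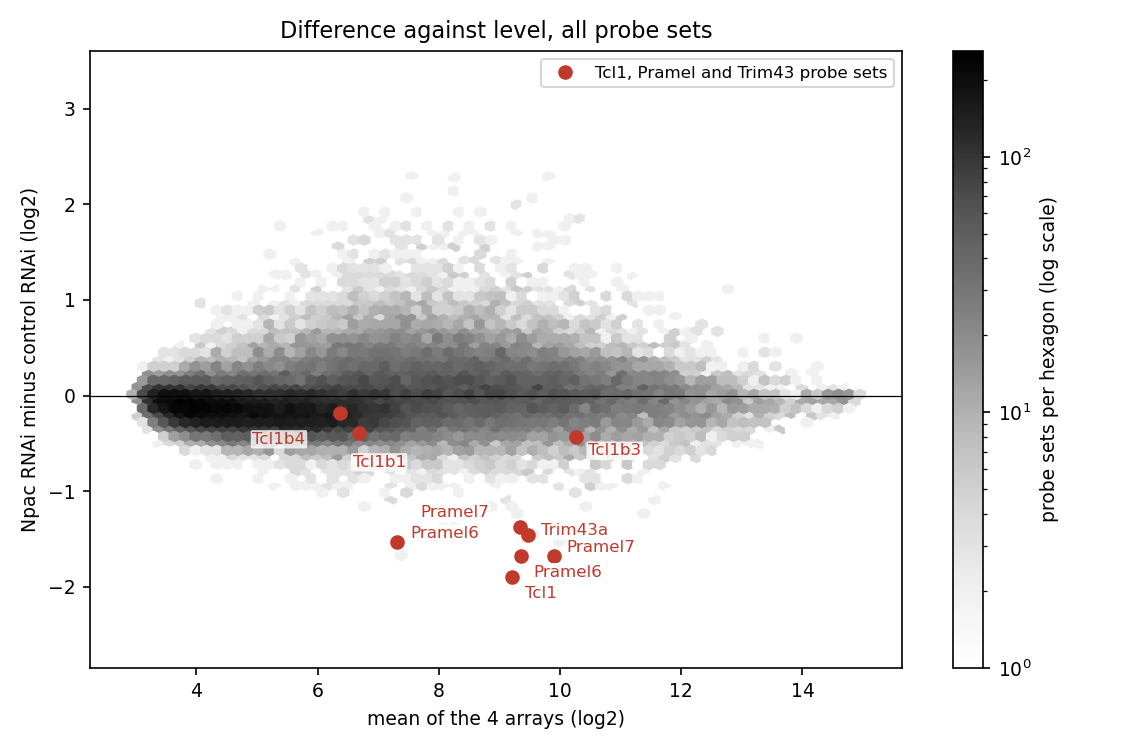
Log2 difference, Npac RNAi minus control RNAi, against the mean of the 4 arrays for all 45037 probe sets, as shaded hexagons, with the 9 probe sets in red. The 6 of Tcl1, Pramel6, Pramel7 and Trim43a lie between -1.90 and -1.38, at the lower edge of the cloud, and the 3 of the Tcl1b genes lie inside it.

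Scaling each array on the 24 poly-A spike-in probe sets, bacterial RNAs added before labelling, takes 0.54 off every log2 difference, so rises smaller than that turn negative under it. The deposited values were otherwise used as they stand. Under every setting tried, the 9 differences stayed below 0. That of Tcl1 ran between -2.44 and -1.85.

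Mtcp1, the other Tcl1-type Akt-binding gene, was not called: its log2 values were 8.62 and 8.76 in Npac RNAi and 8.46 and 8.15 in control RNAi (difference 0.38, limma adjusted p = 0.0853, n = 2 per group). It was called with a trended empirical Bayes step (limma adjusted p = 0.016) and among probe sets at or above the median level (adjusted p = 0.0467), and it turns negative with spike-in scaling. Over its 4 probe sets the difference ran between 0.12 and 0.45. Trim43b and Trim43c had no single-symbol probe set in the annotation used here.

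Of 12 other Pramel-type genes, named by their symbols, 1 was called higher and 3 lower, with a median log2 difference of -0.10. The share called over all genes was 19.3% higher and 14.6% lower. Prame, the founding gene of the family, fell by 0.43 (limma adjusted p = 0.0255), Pramel1 fell by 0.41 (adjusted p = 0.0211) and Pramel18 fell by 0.24 (adjusted p = 0.0487). Pramel13 was higher by 0.36 (limma adjusted p = 0.0184), a rise that turns to -0.18 with spike-in scaling. Each of these 4 lost its call without moderation and whenever any 1 array was left out (for Prame, limma adjusted p between 0.0615 and 0.109), and Pramel18 also with median centring (adjusted p = 0.063). Pramel25 and Pramel27, at 0.18 and 0.02, were not called. None of the 12 fell by more than 0.43, and 9 of the 12 were below the median level of all probe sets. The differences of Pramel6 and Pramel7 lay between -1.68 and -1.38. Pramel6 and Pramel7 were chosen on this same contrast, so nothing is read from their distance to the relatives.

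Probe sets that carry several Pramel-type symbols cannot be assigned to a gene. Of 8, 2 were called lower, 1 higher and 5 not called. One with 5 symbols, Pramel3 among them, had 9.20 and 9.38 in Npac RNAi and 10.88 and 10.71 in control RNAi (difference -1.51, limma adjusted p = 0.00266). Another with 7 symbols, Pramel42 among them, had a difference of -0.83 (adjusted p = 0.00449).

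**Figure D3:**
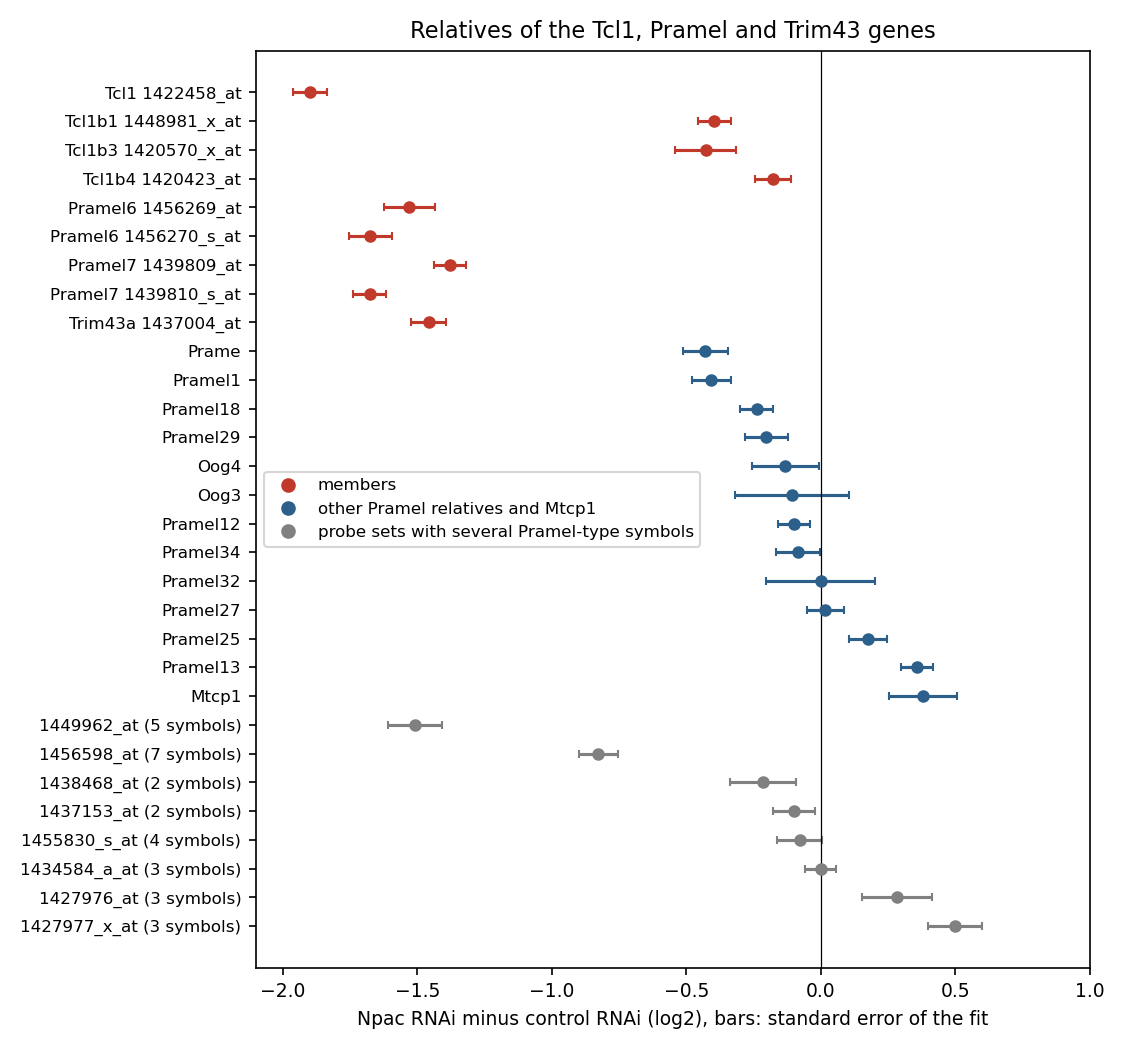
Log2 difference, Npac RNAi minus control RNAi, with the standard error of the fit, for the 9 probe sets in red, for Mtcp1 and 12 other Pramel relatives in blue and for 8 probe sets with several Pramel-type symbols in grey. Beyond the members, 1 probe set lies below -1, the one with 5 symbols at -1.51.

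Tcl1 sits at the end of its cluster on chromosome 12, after Tcl1b2, Tcl1b1, Tcl1b5, Tcl1b3 and Tcl1b4 in annotated order. Its neighbour on the far side, Tunar, a noncoding RNA gene, had a difference of 0.25 (limma adjusted p = 0.0485), which turns to -0.29 with spike-in scaling. The other 3 neighbours with a probe set were not called. Pramel6 and Pramel7 lie side by side on chromosome 2, between olfactory receptor genes, and none of their 10 neighbours had a single-symbol probe set. Trim43a lies on chromosome 9. Of its neighbours, Snhg5, a small nucleolar RNA host gene, fell by 0.53 (limma adjusted p = 0.00911) in 1 of 3 probe sets and 9430037G07Rik fell by 0.32 (adjusted p = 0.0327), and Zfp949 was higher by 0.34 (adjusted p = 0.0184) with a second probe set at -0.37. No measured neighbour fell by more than 0.53.

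**Figure D4:**
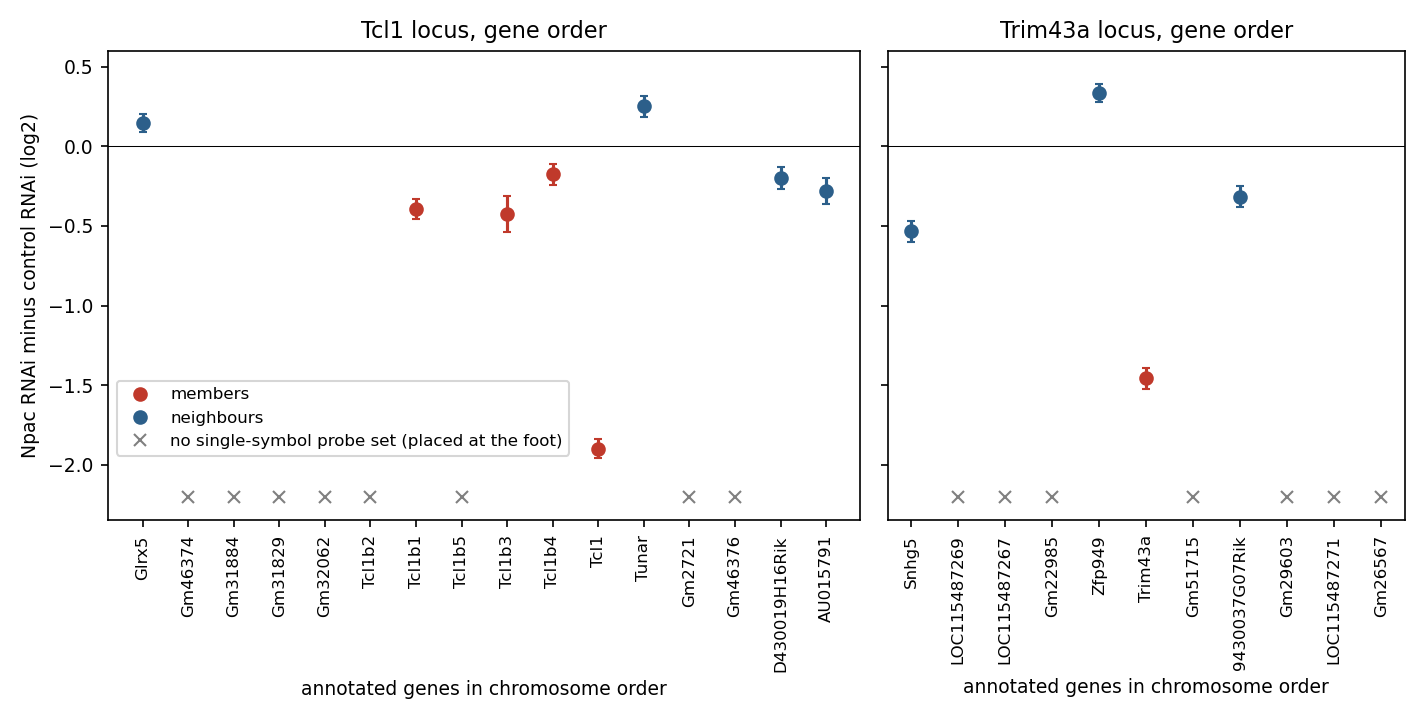
Log2 difference, Npac RNAi minus control RNAi, with the standard error, for genes in chromosome order at the Tcl1 and Trim43a loci, members in red and neighbours in blue. Crosses at the foot mark genes without a single-symbol probe set, and Tcl1 and Trim43a stand at -1.90 and -1.46.

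By the distance between array values, after taking each probe set's own mean away, the genes most like Tcl1 over the 4 arrays were Stmn2, a microtubule-binding stathmin (distance 0.145), 4930550L24Rik (0.232), AI662270 (0.356), Snhg3, a small nucleolar RNA host gene (0.393), and Magea5, of the melanoma antigen family (0.454), out of 11435 genes compared. Among the members, the s-type probe sets of Pramel7 (0.248) and Pramel6 (0.284) and the other probe set of Pramel6 (0.424) fell within this range. Trim43a (0.459) and the other probe set of Pramel7 (0.527) were farther than all 5, and the Tcl1b genes were at 1.48 to 1.73. The 2 groups of 2 arrays set this distance, so it mainly orders genes by how near their fall is to that of Tcl1.

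Among genes of LIF and STAT3 signalling and of pluripotency, 12 of 20 were called lower and 2 higher, beside 14.6% and 19.3% of all genes. Their median log2 difference was -0.35. Which of them regulate the Tcl1, Pramel and Trim43 genes in these cells was not tested. Pou5f1, whose protein controls Tcl1, fell by 1.17 (limma adjusted p = 0.00162), and Nr0b1, an orphan receptor of stem cells, fell by 1.43 (adjusted p = 0.00115). Nanog fell by 0.48 (limma adjusted p = 0.00992), but was not called without moderation (adjusted p = 0.0686). Stat3 itself, which acts above Pramel6 and Pramel7, was not called (0.20, limma adjusted p = 0.0824), was called higher with a trended empirical Bayes step (adjusted p = 0.011) and among probe sets at or above the median level (adjusted p = 0.0285), and turned to -0.34 and was called lower with spike-in scaling (adjusted p = 0.00862). Its 4 probe sets ran between -0.25 and 0.22, with 1 called, the lowest. Jak1, the kinase that activates it, was higher by 0.41 in its brightest probe set and lower by 0.39 in another, so its direction is not settled, and it turns to -0.13 with spike-in scaling. Tbx3, a pluripotency factor, was higher by 0.39 (adjusted p = 0.0133; -0.15 with spike-in scaling).

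Genes of the Akt pathway, in which Tcl1 acts, had 8 of 25 measured called higher and 2 lower, beside 19.3% and 14.6% of all genes. The list's median was 0.11, and -0.43 with spike-in scaling. Eras, an embryonic stem cell Ras protein that activates the kinase PI3K, fell by 1.40 (limma adjusted p = 0.00161), and Pik3r1, a PI3K regulatory subunit, fell by 0.95 (adjusted p = 0.00235), with 3 of its 4 probe sets called lower. Akt1 was higher by 1.02 (limma adjusted p = 0.00295), though its 4 probe sets ran between -0.26 and 1.02, and Inppl1, a lipid phosphatase, was higher by 0.94 (adjusted p = 0.00226).

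Among genes of DNA methylation and of the Cul2 ligase that Pramel7 works with, 2 of 16 were called higher and 6 lower, with a median of -0.09. Uhrf1, the Pramel7 target, fell by 0.57 (limma adjusted p = 0.00791), in 2 of 2 probe sets, but was not called without moderation (adjusted p = 0.0742). Cul2 was not called (-0.11, adjusted p = 0.209). Tet1, which oxidises methylated cytosine, fell by 0.79 (adjusted p = 0.00388). As deposited, the genes of new methylation did not move together. Dnmt3a fell by 0.56 (limma adjusted p = 0.00575), and Dnmt3b and Dnmt3l were higher by 0.43 and 0.41 (adjusted p = 0.0107 and 0.0129), at -0.11 and -0.13 with spike-in scaling.

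Early embryo and oocyte genes, which share the families' time of expression, had 7 of 18 called lower and 2 higher, with a median of -0.18. Tdgf1, a Nodal coreceptor, fell by 1.23 (limma adjusted p = 0.00138) and Obox6, an oocyte homeobox gene, fell by 0.89 (adjusted p = 0.00277). Dppa3, a maternal factor that protects the zygote's methylation, was higher by 0.65 (limma adjusted p = 0.00567), but 0.11 and not called with spike-in scaling (adjusted p = 0.357) and not called without moderation (adjusted p = 0.0634). Zp3, a component of the egg coat, was higher by 0.43 (adjusted p = 0.0119; -0.11 with spike-in scaling). Of 24 genes of the two-cell-like state, a rare state of embryonic stem cells that resembles the cleaving embryo, 9 had a probe set and 5 were called lower, among them Sp110 (-0.86, limma adjusted p = 0.00301, 1 of 3 probe sets) and Ubtfl1 (-0.76, adjusted p = 0.00589).

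**Figure D5:**
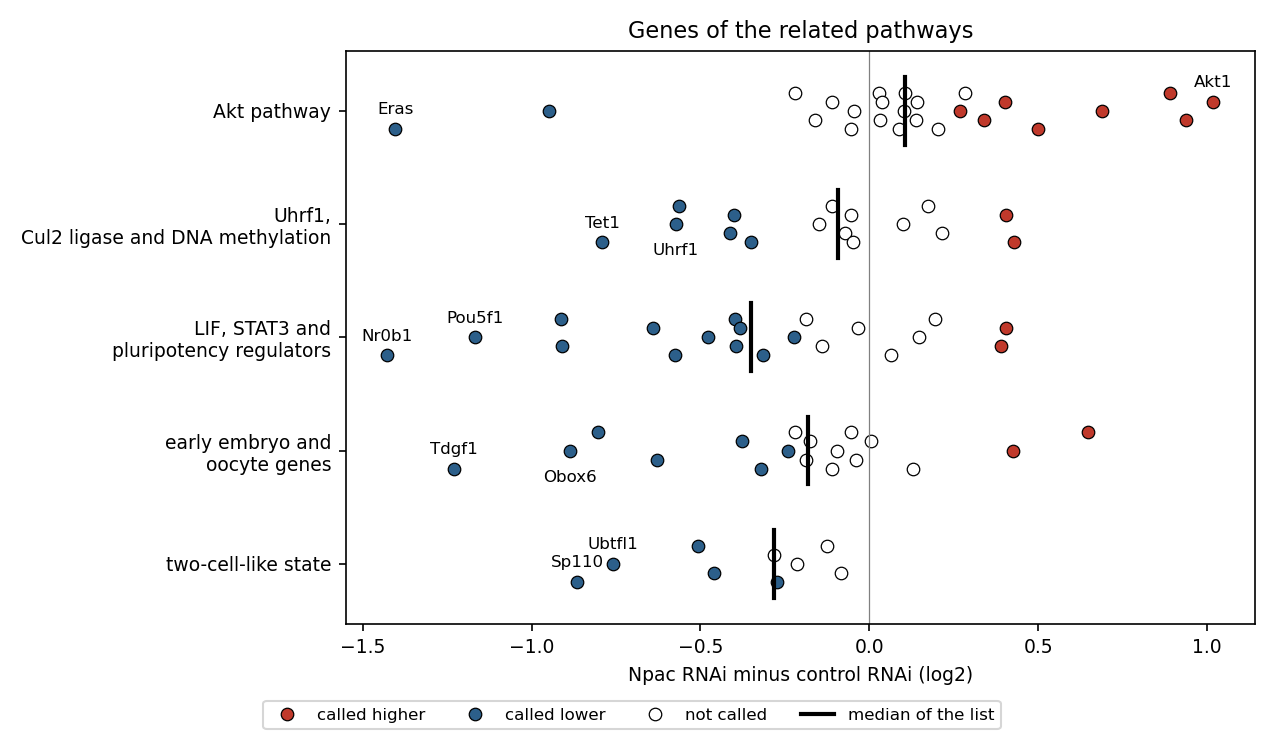
Log2 difference, Npac RNAi minus control RNAi, of each measured gene of 5 lists that surround the families' functions, filled where called, with a bar at each list's median. The medians were 0.11 for the Akt pathway (-0.43 with spike-in scaling), -0.09 for Uhrf1 and DNA methylation, -0.35 for LIF, STAT3 and pluripotency, -0.18 for early embryo and oocyte and -0.28 for the two-cell-like list.

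Cell type markers moved with the same contrast, in which 19.3% of all genes were called higher and 14.6% lower. Of 10 embryonic stem cell markers, 8 were called lower and 0 higher, and their summed linear level was 58155 and 58637 in Npac RNAi and 76156 and 75960 in control RNAi, or 76.8% of control. Single markers kept between 42.6% (Tdgf1) and 97.3% (Dppa5a) of control, and the sum leans on the brightest of them. Several of these markers, Pou5f1, Nanog, Tdgf1 and Dppa5a among them, are also in the lists above, so the counts overlap. Trophectoderm markers, genes of the first placental lineage, had 12 of 15 called higher and 0 lower, with a median log2 difference of 1.84. Their sums were 46470 and 46909 in Npac RNAi and 11144 and 11329 in control RNAi. These sums lean on Krt8 and Krt18, with means of 14.13 and 14.10 in Npac RNAi and 12.07 and 11.96 in control RNAi. Ascl2 and Krt7 rose most, by 2.69 and 2.52 (limma adjusted p = 0.0011 for each). Primitive endoderm markers had 5 of 13 called higher and 1 lower, with a median log2 difference of 0.16. The 7 not called, Gata4, Gata6, Sox7, Sox17 and Hnf4a among them, had differences between -0.27 and 0.25. Col4a2 and Col4a1 were higher by 1.20 and 0.98 (limma adjusted p = 0.00152 and 0.00223). Pdgfra fell by 0.49 (limma adjusted p = 0.0226), in 2 of 3 probe sets. Fibroblast markers had 3 of 14 called higher and 2 lower. Their sums were 7599 and 7764 in Npac RNAi and 7688 and 7518 in control RNAi. The near-equal sums lean on Fn1 and Vim, with means of 11.66 and 11.05 in Npac RNAi and 12.06 and 10.95 in control RNAi. Acta2 and Col5a1, among those called higher, rose by 1.23 (called in 1 of 3 probe sets) and 1.18 (in 2 of 3). The 2 called lower were Fn1, which fell by 0.40 (limma adjusted p = 0.0123), and Prrx1. Prrx1 fell by 0.29 (limma adjusted p = 0.0243), in 1 of 6 probe sets. The other 9 fibroblast markers were not called. Which cells the fibroblast marker RNA came from was not tested. These values have no detection call, so no marker can be said to be at 0. The part of cell type makeup in the falls of the Tcl1, Pramel and Trim43 genes was not tested.

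Over the 153 genes of the related and marker lists, each counted once, 80 were called. Fewer than 80 were called when any 1 array was left out, and 29 without moderation. Among genes named above, Akt1, Tet1, Dnmt3l, Tbx3, Zp3, Sp110 and Ubtfl1 also lost their calls without moderation. So did Snhg5, Tunar, Zfp949, 9430037G07Rik, Acta2, Col5a1 and Pdgfra.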

How the data were processed

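Transcript levels were measured on 4 Affymetrix arrays, 2 of Npac RNAi and 2 of control RNAi, grouped by the sample titles. The authors deposited 1 log2 value per probe set and array. The submitters' processing notes name RMA, a method that corrects background, equalises arrays and summarises probes; they give no version. That the scale is log2 was inferred from their range, between 2.78 and 15.05 and from array medians of 6.41 to 6.44. The software is not given in the sources used here, nor are the probe set definitions. RMA equalises arrays, and a shift shared by most transcripts is thereby removed. The number of arrays limits the precision.

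Of 45101 probe sets, 64 manufacturer's controls were left out, and 34945 carried 1 symbol, 932 several and 9160 none. For 34741 the symbol was updated through Entrez identifiers to RefSeq, and 204 kept theirs. Probe sets with several symbols named no gene. limma 3.58.1 in R 4.3.3 was fitted to all 45037 (lmFit and eBayes, group as the only term, 2 residual and 2.56 prior degrees of freedom), with Benjamini-Hochberg adjustment over all of them and calls at an adjusted p under 0.05. The procedure was tested on simulated data. A gene of a list was represented by its brightest single-symbol probe set, by the mean of all arrays. Windows of 250 bases from the RefSeq promoter table were searched for motifs and aligned in pairs with Biopython 1.88.

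The members, lists and motifs were chosen with earlier results of these data known. Genes were named by rule. It takes every member, Glyr1, the measured relatives (the 3 most raised and 3 most lowered of the Pramel relatives), up to 2 higher and 2 lower called genes with the largest differences of each other list, Pou5f1, Nanog, Stat3, Akt1 and Uhrf1, called neighbours among the 5 genes on each side, and the 5 genes nearest to Tcl1 among those at or above the median level. Cul2, Dnmt3a, Dppa5a, Krt8, Krt18, Vim, Tcl1b5, Pramel3, Pramel42, Pramel51, Gm2042 and Oog1 fall outside it and were chosen after their values were seen. The same holds for Gata4, Gata6, Sox7, Sox17 and Hnf4a. The alternatives were a trended and an omitted empirical Bayes step, 3 other scalings, a filter on dim probe sets, other choices of probe set, a replicate block, a stricter threshold and each array left out in turn. The labels link same-numbered replicates only by that number. Across probe sets, the deviations of same-numbered arrays from their group means correlated at -0.14.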

Additional observations from a re-analysis of the deposited data

Results flagged for a closer look

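The 24 poly-A spike-in probe sets, which are no part of the comparison, read 0.54 higher on the log2 scale in Npac RNAi than in control RNAi, with 24 of 24 higher. They are repeated readings of a few added bacterial RNAs.

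A probe set that carries the 3 symbols Pramel51, Gm2042 and Oog1, and so names no gene, was 0.50 higher in Npac RNAi (5.45 and 5.69) than in control RNAi (5.03 and 5.11; limma adjusted p = 0.0276, n = 2 per group), opposite to Pramel6 and Pramel7. It lies below the median level of all probe sets and turns negative with spike-in scaling.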

How the results depend on the processing

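All 9 differences of the Tcl1, Pramel and Trim43 probe sets stayed below 0 in every setting run, and their median of -1.46 became -1.54 after quantile normalization and -2.00 with spike-in scaling. The number of probe sets called was 12705 (6378 higher, 6327 lower). It was 1893 (1100 higher, 793 lower) without moderation, 39746 (1506 higher, 38240 lower) with spike-in scaling, 4887 (3219 higher, 1668 lower) with the replicate block, 7425 (4020 higher, 3405 lower) with 1 probe set per gene, where fewer features are tested, and 3737 (2565 higher, 1172 lower) at an adjusted p under 0.01. Without Npac RNAi array 1 it was 4237, without Npac RNAi array 2 it was 2795, without control array 1 it was 3139 and without control array 2 it was 2060; the higher calls then ran between 1592 and 2890 and the lower ones between 468 and 1347. Each such fit has 1 residual degree of freedom fewer, and the lone array is assumed to vary like the other group. Of the list genes, 80 were called, against 29 without moderation, 135 with spike-in scaling, 50 with the replicate block, 45 at the stricter threshold and 30 to 45 without 1 array (45 and 37 without Npac RNAi array 1 or 2, 36 and 30 without control array 1 or 2). A crossed replicate block, chosen after seeing the data, called 9500. Apart from fewer features or arrays, the cause of these moves was not tested. With spike-in scaling the signs of Dnmt3b (-0.11), Dnmt3l (-0.13), Jak1 (-0.13), Pramel13 (-0.18), Tbx3 (-0.15), Tunar (-0.29), Zfp949 (-0.20) and Zp3 (-0.11) reversed. Stat3, not called as deposited, turned to -0.34, and the sign of Zfp949 (-0.017) reversed also with the mean of its probe sets.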
